A study of Mus musculus with 8 samples.

Results

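Aminoacyl-tRNA synthetases are the enzymes that join each amino acid to its transfer RNA, and the transcripts of 36 of them were measured in cultured muscle stem cells. The members were chosen by gene symbol alone: 20 genes of the cytosolic set and 16 genes of the mitochondrial set. All 36 were found among the 39017 genes of the table, and all 36 passed the filter on low counts. Mitochondria translate their own small genome, so most amino acids have a separate mitochondrial enzyme encoded in the nucleus. Glycine and lysine are exceptions, because Gars and Kars encode the forms of both compartments, and mitochondrial glutamine tRNA is charged indirectly, by Ears2 and an amidotransferase. When a tRNA stays uncharged, the kinase GCN2 phosphorylates the translation factor eIF2α, and the transcription factor ATF4, whose translation then rises, is known to raise many cytosolic synthetase genes.

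RNA was sequenced from satellite cells (muscle stem cells) that had been isolated from the abdominal muscle and diaphragm of adult Pax3GFP/+ mice, in which 1 Pax3 allele carries a green fluorescent protein reporter. Both groups were plated at 7500 cells in a 35 mm dish and cultured for 4 days, either with 10 µM sal003, an inhibitor of eIF2α dephosphorylation, or with its vehicle DMSO, with 4 libraries in each group. The treatment protocol gives 10 mM in place of 10 µM, and no label tells if the libraries of a group stem from different mice or dishes. The p-values therefore reflect only how these libraries vary, which may be technical. Library totals ranged from 32753929 to 40234107 counts, and DMSO replicate 2 stood apart, with 14437 genes detected against 16561 to 18076 in the other libraries. All 12 markers of satellite cells and myoblasts passed the filter, and together they took 10401 to 11726 CPM (counts scaled to a common library size) in DMSO and 5361 to 5849.6 CPM in sal003. These markers did not move as one: 1 was called higher and 6 lower in sal003, and 5 of the 12 estimates were positive. Myog, one of the 12, is also among the differentiation markers counted below. Markers of fibro-adipogenic, endothelial, immune and glial cells summed to at most 7.18, 13.0, 4.56 and 4.71 CPM per list, with 3 of 10, 2 of 8, 5 of 9 and 3 of 5 genes at 0 in every library. The 6 smooth muscle and pericyte markers summed to 285 to 367 CPM in DMSO and 175 to 208 CPM in sal003, nearly all from Abcc9, Cspg4 and Mcam, while Myh11, Rgs5 and Kcnj8 stayed at or below 2.25 CPM. The culture itself differed in state: 8 of 8 proliferation markers were higher and 14 of 14 differentiation markers lower in sal003, and their part in the results below was not tested.

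Few synthetase transcripts differed between sal003 and DMSO, and those that did moved both ways. Among the 20 cytosolic enzymes Vars rose and Lars and Cars fell, while among the 16 mitochondrial enzymes Iars2 and Sars2 rose and Nars2 fell, by more than any other synthetase that passed the test. Of the 36 members, 6 passed the test of edgeR (adjusted p below 0.05 over all 15816 genes tested), which is 16.7%, where 22.7% of all tested genes passed. Higher calls made up 10.6% and lower calls 12.2% of all tested genes, against 1 and 2 of 20 cytosolic and 2 and 1 of 16 mitochondrial members. Estimates are log2 fold changes of sal003 over DMSO, given ± SE. Their median was -0.12 over the cytosolic and -0.01 over the mitochondrial members, beside -0.003 over all tested genes. They were positive for 7 of 20 cytosolic and 8 of 16 mitochondrial members, and for 49.8% of all genes.

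**Figure D1:**
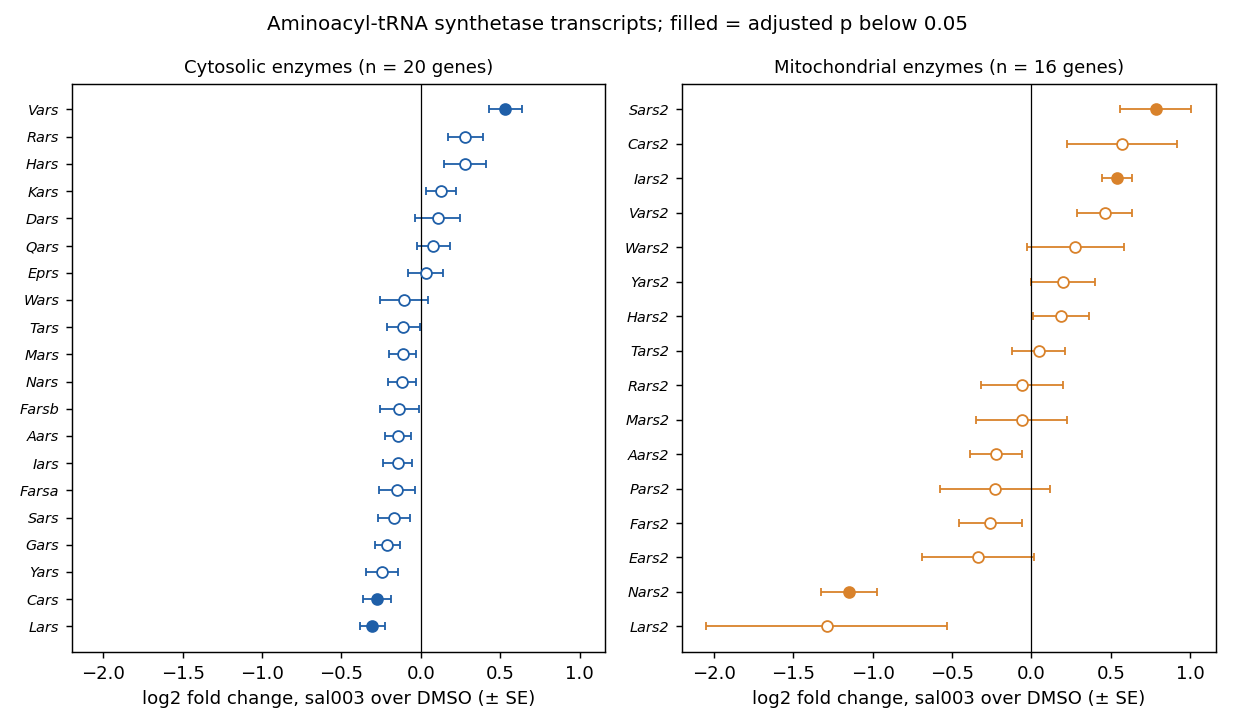
Log2 fold change of sal003 over DMSO (horizontal axis, with its standard error) for each of 20 cytosolic and 16 mitochondrial synthetase genes; filled points passed the edgeR test at an adjusted p below 0.05. Estimates of the cytosolic genes lie between -0.30 and 0.53, and those of the mitochondrial genes between -1.29 and 0.79, with longer error bars.

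All libraries of one group lay beyond all of the other at 4 of 20 cytosolic members (Vars, Lars, Cars and Gars) and at 4 of 16 mitochondrial members (Nars2, Iars2, Sars2 and Vars2), where this held at 26.8% of all tested genes. In each library the 20 cytosolic transcripts added up to 3480.1 to 3905 CPM in DMSO and 3588 to 3636 CPM in sal003, so the 2 ranges overlapped. The 16 mitochondrial transcripts added up to 357 to 696 CPM in DMSO and 418 to 499 CPM in sal003, and the 15 without Lars2, whose level varied widely, to 319 to 401 CPM in DMSO and 368 to 404 CPM in sal003. The cytosolic sum, in CPM not divided by length, was 5.0 to 10.8 times that of all 16 in DMSO and 7.19 to 8.63 times in sal003. Against these 15 the ratio was 8.68 to 12.1 in DMSO and 8.99 to 9.74 in sal003, again with overlap. For the cytosolic sum, the sum of these 15 and their ratio, the ranges overlapped only because of DMSO replicate 2. The other DMSO libraries lay at 3659 to 3905 CPM, 319 to 343 CPM and 11.2 to 12.1, outside the range of sal003.

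Levels were compared between genes as CPM per kilobase of the longest principal transcript. Over the mean of both groups the cytosolic members ranged from 26.0 (Farsb) to 121 CPM per kb (Gars) with a median of 52.1, and the mitochondrial members from 1.07 (Mars2) to 32.7 CPM per kb (Lars2) with a median of 6.74. Gars, the glycine enzyme of both compartments, stood at 129.9 ± 7.54 CPM per kb in DMSO and 112 ± 2.60 in sal003, and Nars, the cytosolic asparagine enzyme, at 118 ± 12.0 and 109 ± 4.06. Eprs, which joins the glutamate and proline enzymes in 1 protein, followed at 109 ± 19.4 CPM per kb in DMSO and 111 ± 4.29 in sal003, and these 3 were not separated beyond their spread in sal003. Their order depends on the length used: per kb of all annotated exons Gars and Nars stayed first and second, and Eprs came 11th. Lowest on this scale were Mars2 (1.10 ± 0.404 CPM per kb in DMSO), Wars2 (1.79 ± 0.711) and Pars2 (2.59 ± 0.217), the mitochondrial methionine, tryptophan and proline enzymes. This order also depends on the length: per kb of all annotated exons Cars2 was lower than Mars2 in DMSO (0.922 against 1.10). Lars2 was above Iars2 in DMSO (46.4 ± 31.6 against 15.3 ± 0.879 CPM per kb) but not in sal003 (19.0 ± 11.8 against 22.3 ± 1.16), and per kb of all exons it ranked 22nd of the 36 and Iars2 20th. The median spread between libraries, as SD over mean, was 10.8% in DMSO and 4.68% in sal003 for cytosolic members, and 18.5% and 14.9% for mitochondrial ones, whose counts were lower (117 to 9965 per library, against 1523 to 23834). The test is thus coarser for mitochondrial members, with a median standard error of 0.21 on the log2 scale against 0.10.

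**Figure D2:**
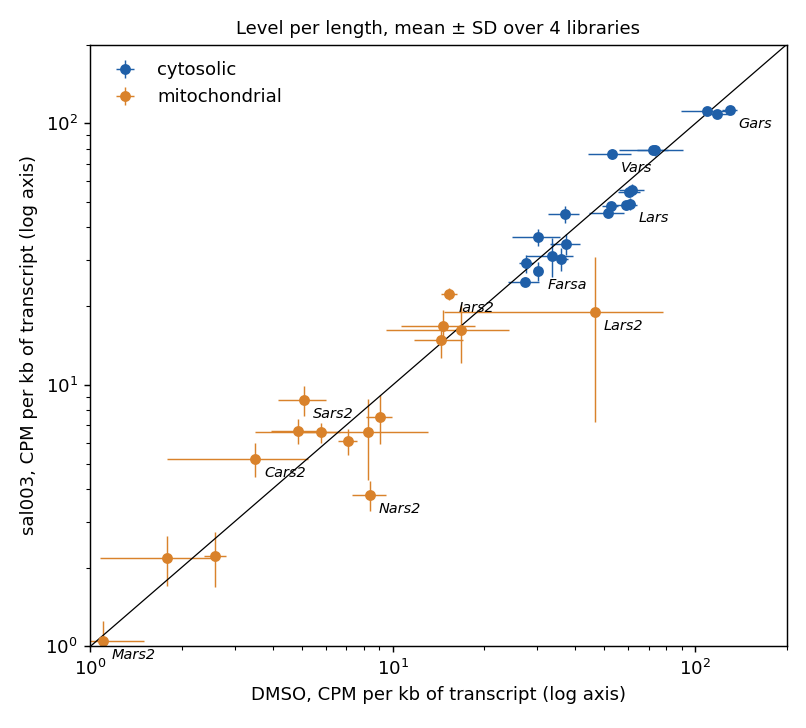
Level of each synthetase gene as CPM per kb of transcript in DMSO (horizontal, log axis) and sal003 (vertical, log axis), mean ± SD over 4 libraries, with the line of equal level. Cytosolic genes lie from 26.0 to 121 CPM per kb in the mean of both groups and mitochondrial genes from 1.07 to 32.7, where Lars2, with long error bars, is the highest.

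A total of 8 cytosolic enzymes (Eprs, Iars, Lars, Mars, Qars, Rars, Kars and Dars) are built into the multisynthetase complex, a particle that gathers these enzymes in the cytosol. Among them 0 rose and 1 fell with edgeR (1 higher and 1 lower at an unadjusted p below 0.05; 0 and 1 with DESeq2; 0 and 2 with limma-voom), and the median estimate was 0.05. Called genes were thus 12.5% of these 8, beside 22.7% of all tested genes (10.6% higher and 12.2% lower). Lars, the leucine enzyme, was the one that fell (ENSMUSG00000024493, chromosome 18, 42202298 to 42262194, minus strand of mm10). It stood at 238, 234, 256 and 238 CPM in DMSO replicates 1 to 4 and at 206, 182, 195 and 199 CPM in sal003 replicates 1 to 4. Every sal003 library lay below every DMSO library, and the estimate was -0.30 ± 0.08 (edgeR adjusted p = 0.0118), a ratio of means of 0.810. Without sal003 replicate 2 the adjusted p was 0.0529.

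Rars, the arginine enzyme, had the largest positive estimate in the complex but did not pass the test. Its level was 72.9, 71.1, 77.0 and 91.3 CPM in the DMSO libraries and 105, 88.0, 90.9 and 95.9 CPM in the sal003 libraries. DMSO replicate 4 overlapped with sal003, and the estimate was 0.28 ± 0.11 (edgeR adjusted p = 0.0844), which passed only without that library (0.38; adjusted p = 0.0206) among the alternatives run. The other 6 complex enzymes had estimates between -0.15 (Iars) and 0.13 (Kars), with adjusted p from 0.293 to 0.900. Iars, the isoleucine enzyme, stood at 275, 236, 288 and 293 CPM in DMSO and 248, 229, 254 and 255 CPM in sal003. The groups overlapped through DMSO replicate 2, without which its estimate was -0.20 (adjusted p = 0.0493). The complex is held together by 3 scaffold proteins, of which Eef1e1 rose, from 16.1 ± 3.69 CPM in DMSO to 24.8 ± 3.07 CPM in sal003 (SD, n = 4; estimate 0.62 ± 0.20, edgeR adjusted p = 0.0321). Leaving out any of 5 libraries (replicates 1 and 3 of DMSO, replicates 1, 3 and 4 of sal003) ended this call (adjusted p up to 0.103). The scaffolds Aimp1 (-0.06 ± 0.16) and Aimp2 (0.26 ± 0.18) did not pass.

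Outside the complex, 1 of 12 cytosolic enzymes rose and 1 fell (16.7% called, beside 22.7% of all tested genes). Vars, the valine enzyme, which binds the elongation factor eEF1 rather than the complex, rose (ENSMUSG00000007029, chromosome 17, 35000987 to 35016322, plus strand of mm10). It stood at 224, 266, 185 and 199 CPM in the 4 DMSO libraries and at 313, 330.3, 321 and 299 CPM in the 4 sal003 libraries. All sal003 libraries were above all DMSO libraries, and the estimate was 0.53 ± 0.10 (edgeR adjusted p = 0.00140), a ratio of means of 1.45. The call held in all 8 fits that left out 1 library, with estimates from 0.47 to 0.65.

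Cars, the cysteine enzyme, fell (ENSMUSG00000010755, chromosome 7, 143557230 to 143600090, minus strand of mm10). Its level was 167, 205, 192 and 195 CPM in DMSO and 163, 155, 159.8 and 149 CPM in sal003. The lowest DMSO library, replicate 1, was close to the highest sal003 library, and the estimate of -0.28 ± 0.09 (edgeR adjusted p = 0.0348) was past the threshold in 2 of the 8 fits without 1 library, namely those without DMSO replicate 1 or 2. In the other 6 the adjusted p was between 0.07 and 0.12, and it was 0.0690 with a replicate block.

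Gars did not pass although its groups did not overlap. It stood at 286, 304, 321 and 325 CPM in DMSO and 265, 275, 261 and 268 CPM in sal003, with an estimate of -0.21 ± 0.08 (edgeR adjusted p = 0.0675; 0.0414 without DMSO replicate 2). Hars, the histidine enzyme, stood at 50.7, 51.2, 71.8 and 67.0 CPM in DMSO and 70.3, 66.9, 79.3 and 75.5 CPM in sal003. Its DMSO libraries formed a low pair and a high pair, the high pair overlapped with sal003, and the estimate was 0.28 ± 0.13 (adjusted p = 0.161). Sars, the serine enzyme, had an estimate of -0.17 ± 0.10 with values of 196, 155, 208 and 172 CPM in DMSO and 165, 163, 168 and 154 CPM in sal003, where DMSO replicate 2 was again the lowest and the groups overlapped. Without that library its estimate was -0.23 (adjusted p = 0.0449), so 5 cytosolic members were lower and 1 higher then: Lars, Cars, Gars, Iars and Sars fell and Vars rose. Nars was at 310.4, 283, 354 and 346 CPM in DMSO and 308, 303, 299 and 282 CPM in sal003, with overlap (-0.12 ± 0.09). The remaining 6, Aars, Farsa, Farsb, Tars, Wars and Yars, had estimates between -0.24 and -0.11 with adjusted p of 0.109 or more.

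Synthetases fall into 2 structural classes with unrelated catalytic folds. The 3 cytosolic calls, Vars, Lars and Cars, were all among the 10 class I enzymes. Of the 10 cytosolic class II enzymes 0 passed with edgeR (0 higher and 1 lower at an unadjusted p below 0.05; 0 and 1 with DESeq2; 0 and 2 with limma-voom). Among mitochondrial members 1 of 9 class I enzymes and 2 of 7 class II enzymes passed. These are small counts, beside 22.7% of all tested genes called, and the difference between the classes was not tested.

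**Figure D3:**
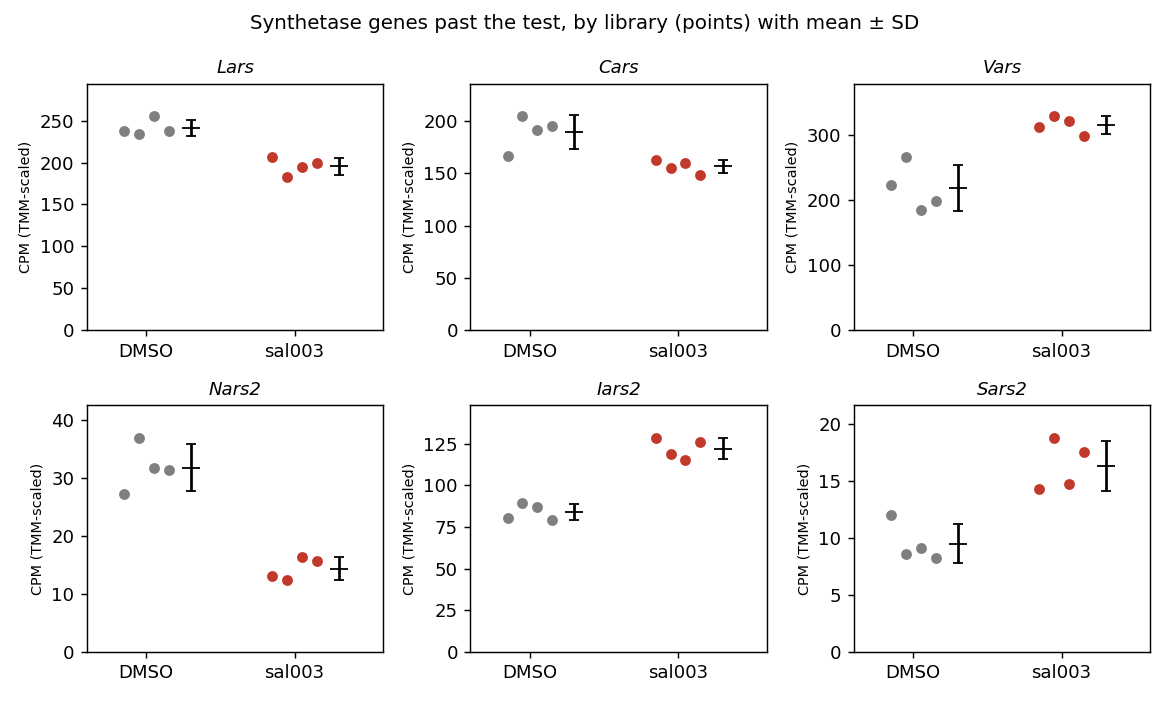
CPM in each of 4 DMSO and 4 sal003 libraries (points) with the group mean ± SD (bars) for the 6 synthetase genes that passed the test: Lars, Cars and Vars of the cytosol, and Nars2, Iars2 and Sars2 of mitochondria. In each panel the vertical axis starts at 0 and the 2 groups do not overlap.

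The mitochondrial enzyme that fell was Nars2, which charges mitochondrial asparagine tRNA (ENSMUSG00000018995, chromosome 7, 96951505 to 97064758, plus strand of mm10). Its transcript stood at 27.1, 36.9, 31.6 and 31.4 CPM in DMSO replicates 1 to 4 and at 13.0, 12.4, 16.2 and 15.7 CPM in sal003 replicates 1 to 4. The highest sal003 library was well below the lowest DMSO library, and the estimate was -1.15 ± 0.17 (edgeR adjusted p = 0.000144), a ratio of means of 0.451. The call held in every fit without 1 library, with estimates from -1.21 to -1.06. Its exons overlap those of C230038L03Rik on the other strand, a transcript with 0 counts in all 8 libraries.

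Iars2, which charges mitochondrial isoleucine tRNA, rose (ENSMUSG00000026618, chromosome 1, 185284726 to 185329396, minus strand of mm10). Its level was 80.7, 89.2, 86.8 and 79.2 CPM in DMSO and 129, 119, 115 and 126 CPM in sal003. The 4 values of each group lay close together and did not overlap, and the estimate was 0.54 ± 0.09 (edgeR adjusted p = 0.000452), a ratio of means of 1.45. The annotated exons of Iars2 share 2034 bases with Rab3gap2 on the opposite strand, and the strand setting of the counting is not given in the sources used here. Rab3gap2 went from 147 ± 12.3 CPM in DMSO to 125 ± 9.72 CPM in sal003 (SD, n = 4), with an estimate of -0.24 ± 0.10 (adjusted p = 0.101), opposite in sign to that of Iars2.

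Sars2, which charges mitochondrial serine tRNA, also rose (ENSMUSG00000070699, chromosome 7, 28741992 to 28753871, plus strand of mm10). It stood at 12.0, 8.60, 9.08 and 8.23 CPM in DMSO and 14.3, 18.8, 14.7 and 17.5 CPM in sal003. DMSO replicate 1 was the highest of its group and still below every sal003 library, and the estimate was 0.79 ± 0.22 (edgeR adjusted p = 0.0175). Without sal003 replicate 2, the highest library, the estimate was 0.71 and did not pass (adjusted p = 0.0705), which left Iars2 as the 1 mitochondrial member called higher.

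Vars2, the mitochondrial partner of Vars, stood at 18.6, 26.2, 23.2 and 17.7 CPM in DMSO and 26.3, 28.2, 34.0 and 29.5 CPM in sal003. The groups just failed to overlap, with DMSO replicate 2 next to sal003 replicate 1, and the estimate of 0.46 ± 0.17 did not pass (edgeR adjusted p = 0.0721). It was 0.58 and passed without DMSO replicate 2 (adjusted p = 0.0108). Cars2 was low and uneven, at 3.74, 3.97, 9.14 and 9.84 CPM in DMSO and 8.02, 9.85, 10.3 and 11.5 CPM in sal003. DMSO replicates 1 and 2 lay far below replicates 3 and 4, which overlapped with sal003, and the estimate was 0.57 ± 0.35 (adjusted p = 0.293).

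Lars2, the mitochondrial leucine enzyme, had the largest estimate of all members and did not pass the test. Its level was 118, 296, 271 and 38.2 CPM in DMSO replicates 1 to 4 and 32.8, 40.7, 131 and 91.6 CPM in sal003 replicates 1 to 4, with an estimate of -1.29 ± 0.76 (edgeR adjusted p = 0.326). The libraries of 1 group differed by more than the groups did: DMSO replicates 2 and 3 were high, and DMSO replicate 4 was as low as sal003 replicates 1 and 2. For comparison, Gm26924 was singled out after its values were seen. This non-coding transcript (chromosome 17, 39846958 to 39848788 of mm10) shares all 1831 bases with an annotated ribosomal RNA gene on the opposite strand. It stood at 12585, 17418, 15236 and 8375 CPM in DMSO and 7380.2, 7268, 9417 and 9089 CPM in sal003. It too was highest in DMSO replicates 2 and 3 and lowest in DMSO replicate 4 and sal003 replicates 1 and 2, and its part in the values of Lars2 was not tested.

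**Figure D4:**
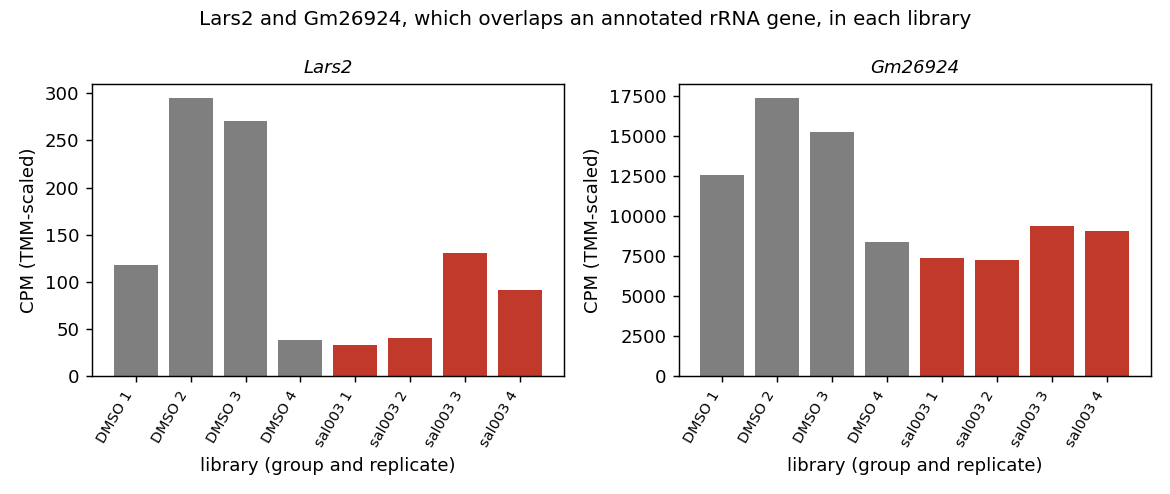
CPM of Lars2 (left) and of Gm26924, a transcript over an annotated ribosomal RNA gene (right), in each of the 8 libraries; grey bars are DMSO and red bars sal003, and both axes start at 0. Lars2 ranges from 38.2 to 296 CPM within DMSO, and in both panels DMSO replicates 2 and 3 are the highest.

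The other 10 mitochondrial members had adjusted p between 0.412 and 0.926. Estimates ran from -0.34 for Ears2, the glutamate enzyme, to 0.28 for Wars2, the tryptophan enzyme. In Ears2, DMSO replicate 2 held 31.7 CPM against 11.7 to 12.4 CPM in the other DMSO libraries, and the estimate was 0.17 without it (adjusted p = 0.721). Rars2 was also highest there, at 51.2 CPM against 20.7 to 29.1 CPM in the other 3, with an estimate of -0.06 that became 0.30. Over the 16 members the median estimate moved from -0.01 to 0.16 without DMSO replicate 2.

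Cytosolic and mitochondrial enzymes of the same amino acid were set side by side in 17 pairs, with both subunits of the cytosolic phenylalanine enzyme and both activities of Eprs counted. In 0 of the 17 pairs did both partners pass the edgeR test, and in 9 pairs the estimates had opposite signs. Over all tested genes 22.7% were called and 49.8% of estimates were positive. Neither count was tested against pairs of unrelated genes. Within each library the ratio of the cytosolic to the mitochondrial partner, per length, was above 1 in all 8 libraries for 16 pairs. The exception was leucine, where Lars over Lars2 went down to 0.78 in DMSO. The ratios of the 2 groups did not overlap in 3 pairs. Groups did not overlap at 26.8% of all tested genes taken singly, and no such share was computed for ratios. For asparagine, Nars over Nars2 ran from 10.6 to 15.8 in DMSO and from 24.8 to 33.6 in sal003. For isoleucine, Iars over Iars2 ran from 3.27 to 4.57 in DMSO and from 2.38 to 2.73 in sal003, and for serine, Sars over Sars2 ran from 8.57 to 12.0 and from 4.53 to 6.04. The asparagine enzymes thus moved further apart in sal003 and the isoleucine and serine enzymes closer together, and in all 3 pairs it was the mitochondrial partner that passed the test. In the valine pair both estimates were positive (0.53 and 0.46) and the ratio of Vars to Vars2 overlapped between groups, at 8.55 to 12.8 in DMSO and 10.1 to 12.7 in sal003. The differences between partners are given as values and were not tested.

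**Figure D5:**
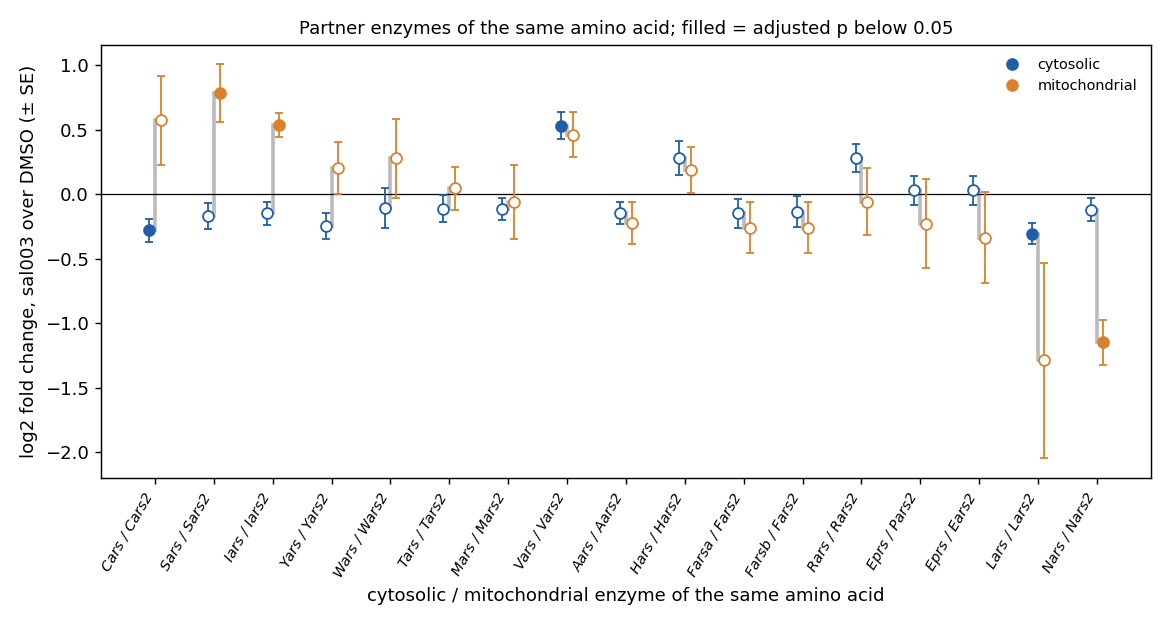
Log2 fold change of sal003 over DMSO (vertical axis, ± SE) for the cytosolic and the mitochondrial enzyme of each amino acid, joined by a grey line and ordered by the change in their ratio; filled points passed the test. Nars2 lies far below Nars, Iars2 and Sars2 lie above Iars and Sars, and Vars and Vars2 lie together.

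Promoter windows were searched because cytosolic synthetase genes are textbook targets of ATF4. RefSeq promoter sequences (GRCm38.p6; 250 bases before to 50 bases after the transcript start) were matched by identifier or symbol for 26 of the 36 members, 12 cytosolic ones and 14 mitochondrial ones with 15 windows. The motif TGATGNAA, a form of the composite site bound by ATF4 with C/EBP proteins, was found on either strand in 5 of the 12 cytosolic windows, in 0 of the 15 mitochondrial windows and in 3.97% of all 32851 windows. The E-box CACGTG was found in 4 cytosolic windows and 1 mitochondrial window (7.15% of all windows), and a site for NRF1, a factor of mitochondrial gene expression, in 3 and 2 (4.60% of all windows). In Tars the E-box adjoins an NRF1 match. The 5 cytosolic windows with TGATGNAA are those of Aars, Gars, Iars, Tars and Yars, shown because they share the motif, and the capitals mark matches to any of the 3 motifs.
Aars: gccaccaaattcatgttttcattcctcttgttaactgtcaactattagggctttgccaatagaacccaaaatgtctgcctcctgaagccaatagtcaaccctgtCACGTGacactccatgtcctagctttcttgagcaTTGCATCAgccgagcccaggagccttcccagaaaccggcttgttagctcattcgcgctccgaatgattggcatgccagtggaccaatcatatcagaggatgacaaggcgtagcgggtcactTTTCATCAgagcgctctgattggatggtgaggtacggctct
Gars: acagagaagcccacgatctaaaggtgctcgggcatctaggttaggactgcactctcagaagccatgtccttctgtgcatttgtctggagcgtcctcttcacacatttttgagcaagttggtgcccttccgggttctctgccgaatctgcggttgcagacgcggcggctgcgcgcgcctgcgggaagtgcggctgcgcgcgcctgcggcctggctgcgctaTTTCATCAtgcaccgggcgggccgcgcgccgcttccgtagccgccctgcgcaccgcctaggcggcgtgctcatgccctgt
Iars: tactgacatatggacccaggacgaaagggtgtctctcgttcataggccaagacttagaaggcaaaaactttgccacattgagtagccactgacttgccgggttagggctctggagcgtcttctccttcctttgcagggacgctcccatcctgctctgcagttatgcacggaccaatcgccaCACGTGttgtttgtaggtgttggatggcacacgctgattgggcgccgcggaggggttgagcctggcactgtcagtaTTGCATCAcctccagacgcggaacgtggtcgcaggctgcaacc
Tars: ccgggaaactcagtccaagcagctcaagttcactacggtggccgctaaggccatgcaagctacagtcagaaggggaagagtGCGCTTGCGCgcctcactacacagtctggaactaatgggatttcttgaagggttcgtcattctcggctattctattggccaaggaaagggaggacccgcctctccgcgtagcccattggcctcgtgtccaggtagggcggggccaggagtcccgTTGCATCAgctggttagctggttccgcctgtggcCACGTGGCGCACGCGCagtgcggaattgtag
Yars: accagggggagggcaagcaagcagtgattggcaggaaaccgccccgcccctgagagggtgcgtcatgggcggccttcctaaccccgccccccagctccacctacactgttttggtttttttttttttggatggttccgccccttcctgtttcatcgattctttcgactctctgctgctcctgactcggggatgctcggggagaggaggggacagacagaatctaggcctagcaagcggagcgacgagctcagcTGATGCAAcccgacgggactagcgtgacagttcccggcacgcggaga
The windows are chr8:111033592-111033891 (plus strand) for Aars, chr6:55037751-55038050 (plus strand) for Gars, chr13:49681880-49682179 (plus strand) for Iars, chr15:11399609-11399908 (minus strand) for Tars and chr4:129189653-129189952 (plus strand) for Yars. Counted from 1 at the transcript start, TGATGNAA matches begin at -112 and 10 in Aars, -30 in Gars, 8 in Iars, -15 in Tars and 4 in Yars. Only the match in Yars is on the strand of the gene, and the others read as the reverse complement.

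None of these 5 genes passed the edgeR test, and all 5 estimates were below 0: -0.14 for Aars, -0.21 for Gars, -0.15 for Iars, -0.11 for Tars and -0.24 for Yars. At an unadjusted p below 0.05 the 2 lowest, Gars and Yars, were past the threshold. Gars passed with DESeq2 and with limma-voom, Iars with limma-voom, and Aars, Tars and Yars with neither. With the filter of 10 CPM both Gars (0.0186) and Yars (0.0463) had an adjusted p past the threshold. The 7 cytosolic members whose windows lack the motif had estimates from -0.17 (Sars) to 0.13 (Kars), 4 of them above 0 (2 with limma-voom or without DMSO replicate 2, where Dars and Eprs were below 0). Over all 20 cytosolic members 13 estimates were below 0. A match describes letters in the window and not a site in use.

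Of the 6 members that passed the test, Nars2, Iars2 and Sars2 had a promoter window. They are shown because they hold the mitochondrial changes, with the same marking.
Nars2: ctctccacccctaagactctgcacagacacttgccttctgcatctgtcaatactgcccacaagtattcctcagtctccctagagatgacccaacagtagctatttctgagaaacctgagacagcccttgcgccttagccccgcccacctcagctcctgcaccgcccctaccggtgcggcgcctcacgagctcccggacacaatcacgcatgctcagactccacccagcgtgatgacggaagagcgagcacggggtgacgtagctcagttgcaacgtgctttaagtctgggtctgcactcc
Iars2: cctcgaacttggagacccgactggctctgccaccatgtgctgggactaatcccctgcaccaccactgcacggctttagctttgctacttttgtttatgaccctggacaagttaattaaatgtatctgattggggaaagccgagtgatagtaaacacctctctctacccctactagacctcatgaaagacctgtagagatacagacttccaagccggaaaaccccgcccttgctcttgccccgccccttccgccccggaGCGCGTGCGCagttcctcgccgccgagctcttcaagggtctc
Sars2: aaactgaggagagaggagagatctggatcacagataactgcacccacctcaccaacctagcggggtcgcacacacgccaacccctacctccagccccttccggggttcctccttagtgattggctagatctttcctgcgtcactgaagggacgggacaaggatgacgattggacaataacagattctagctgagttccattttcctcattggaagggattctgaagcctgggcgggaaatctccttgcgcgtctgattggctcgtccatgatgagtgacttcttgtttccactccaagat
The windows are chr7:96951277-96951576 (plus strand) for Nars2, chr1:185329352-185329651 (minus strand) for Iars2 and chr7:28741718-28742017 (plus strand) for Sars2. Iars2 holds 1 NRF1 match, which begins at 9, and Nars2 and Sars2 hold none of the 3 motifs.

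Other genes of tRNA charging and delivery were tested beside the synthetases. Aarsd1, which clears mischarged alanine tRNA, went from 10.1 ± 3.07 CPM in DMSO to 18.1 ± 4.30 CPM in sal003 (0.84 ± 0.26; edgeR adjusted p = 0.0290), a call that did not hold without DMSO replicate 4 or sal003 replicate 1 or 3 (adjusted p up to 0.113). The amidotransferase subunits Gatb, Gatc and Qrsl1, which work with Ears2, had estimates of 0.14 ± 0.23, -0.35 ± 0.27 and 0.31 ± 0.25 and did not pass. Of 6 cytosolic elongation factor genes, which take charged tRNA to the ribosome, 0 passed with edgeR, at an unadjusted p below 0.05, with DESeq2 or with limma-voom, and Eef1a1, which encodes the main such factor, had an estimate of 0.07 ± 0.08. Of 9 mitochondrial translation factor genes 0 passed with edgeR, DESeq2 or limma-voom (2 higher and 1 lower at an unadjusted p below 0.05), and 1 rose without DMSO replicate 2 or without sal003 replicate 3. The groups did not overlap at 4 of these 9 (Tufm and Gfm1 higher, Mtif3 and Mtrf1 lower), against 26.8% of all tested genes. Since 22.7% of all tested genes were called, lists of 6 and 9 genes are too short to read 0 calls as a lack of change.

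Over both directions, genes that make and mature tRNA were called at shares near that of all tested genes (22.7%). In these 2 lists most calls were higher, where 10.6% of all tested genes were called higher and 12.2% lower. Estimates were positive for 49.8% of all tested genes, against 16 of 21 and 20 of 24 in the 2 lists. Of 21 genes of RNA polymerase III and its factors, which transcribe tRNA genes, 5 rose and 1 fell (28.6% called), with a median estimate of 0.17 (0.04 without DMSO replicate 2). The polymerase subunits Polr3e and Polr3f had log2 fold changes of 0.75 ± 0.15 and 0.45 ± 0.12, the initiation factor Bdp1 of 0.47 ± 0.11 and the TFIIIC subunit Gtf3c2 of 0.43 ± 0.11. Brf1, another initiation factor, was the one that fell (-0.43 ± 0.13), but not when any of 5 libraries (replicates 1 and 3 of DMSO, replicates 1, 2 and 4 of sal003) was left out. Of 24 tested genes of tRNA maturation and export 5 rose and 0 fell (20.8% called), with a median of 0.17. Pop1, a subunit of RNase P, which trims the 5′ end of tRNA, went from 46.2 ± 2.06 CPM in DMSO to 73.6 ± 4.46 CPM in sal003 (0.67 ± 0.11; edgeR adjusted p = 0.000251), and Trnt1, which adds the CCA end where the amino acid is attached, from 31.7 ± 5.82 CPM in DMSO to 49.7 ± 5.74 CPM in sal003 (0.65 ± 0.16; adjusted p = 0.00690). The count of higher genes in this list was 3 without DMSO replicate 1 or sal003 replicate 2, 3 or 4 and 2 without sal003 replicate 1.

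Of 70 tested genes of tRNA modification 8 rose and 2 fell, with a median of 0.14 and 51 positive estimates. Called genes were 14.3% of the list beside 22.7% of all genes (10.6% higher and 12.2% lower). The methyltransferase Nsun2 went from 132 ± 16.5 CPM in DMSO to 194 ± 6.97 CPM in sal003 (0.55 ± 0.10; edgeR adjusted p = 0.000687), and the pseudouridine synthase Pus7 had a log2 fold change of 0.48 ± 0.11. The count of higher genes was 5 without sal003 replicate 2 or 4, and that of lower genes was 0 without DMSO replicate 4, sal003 replicate 2 or sal003 replicate 4, 1 without each other library, and 0 with a replicate block.

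Genes of uncharged tRNA sensing and known ATF4 targets other than synthetases were tested as context, with members that earlier results of these data already showed. The list has 30 tested genes, of which 3 rose and 12 fell, beside 10.6% higher and 12.2% lower calls over all genes. The median estimate was -0.51 (-0.39 without DMSO replicate 2). Asns, which makes asparagine, went from 160.2 ± 14.8 CPM in DMSO to 115 ± 6.59 CPM in sal003 (-0.48 ± 0.10; edgeR adjusted p = 0.00161), and the transcription factor Atf5 had a log2 fold change of -0.86 ± 0.16. Fgf21 (-5.37), Vldlr (-0.84), Gpt2 (-0.72), Slc7a5 (-0.68) and Slc3a2 (-0.56) also fell, each with a lower adjusted p than Asns. The serine pathway enzymes Phgdh (0.50 ± 0.12) and Shmt2 (0.46 ± 0.10) rose, as did Eif2ak4, which encodes the sensor GCN2 (0.49 ± 0.15; edgeR adjusted p = 0.0256). Its call did not hold with a replicate block (0.0523) or when replicate 1 of DMSO or replicate 1, 2 or 3 of sal003 was left out (adjusted p up to 0.0953). Beside these, 17 of 20 cytosolic synthetases did not pass, and their estimates outside the 3 calls lay between -0.24 and 0.28.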

How the data were processed

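Stranded libraries were prepared from RNA cleared of ribosomal RNA, per the labels' protocols. The authors deposited 1 table of raw counts per gene over exons. The tools listed are featureCounts 1.4.4, STAR 2.3.0e and Trimmomatic 0.32, with the build mm10, per the submitters' processing notes. How strand and multiply aligned reads were handled is not given in the sources used here. All 8 columns were matched to samples by title, and replicate libraries differed far beyond counting noise (chi-square at least 24.3 per degree of freedom). Precision from depth covers counting error only.

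In R 4.3.3 counts were tested with edgeR 4.0.16: filterByExpr (minimum count 10, total 15), TMM scaling, a robust quasi-likelihood fit on condition, two-sided, Benjamini-Hochberg over all genes, threshold 0.05. SE is the log2 fold change over the square root of F, and CPM are TMM-scaled. Per-length levels divide CPM by the longest principal transcript of GENCODE M21. Of 286 symbols in the gene lists 283 were matched. A further result on tRNA charging is not reported here. The members and lists were chosen with earlier results of these data known. Named in full were members past the threshold and their partners, and the 4 largest estimates and 2 highest levels per compartment. Of the other lists the text names part of the called genes, not always in order of p.

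Alternatives were DESeq2 size factors, no filter, 10 CPM in 4 libraries, removal of the 20 most abundant, mitochondrial and ribosomal RNA genes, DESeq2 1.42.0, limma-voom (limma 3.58.1) with quality weights, a replicate block, halved counts (75.6% to 83.4% of counts from 1 to 20 were even) and leaving out each library. Protein-coding genes alone were added after seeing the data.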

Additional observations from a re-analysis of the deposited data

Results flagged for a closer look

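Within each group of 4 libraries, the highest or lowest value of each synthetase was compared with the rest, and 3 of 72 sets held a library far from the others by Dixon's criterion, where chance gives about 1 in 20. Qars stood at 83.5 CPM in DMSO replicate 2 and at 74.4 to 75.9 CPM in the other DMSO libraries. Ears2 stood at 31.7 CPM in DMSO replicate 2 and at 11.7 to 12.4 CPM in the others. Wars2 stood at 12.6 CPM in sal003 replicate 1 and at 8.27 to 8.97 CPM in the other sal003 libraries. None of these genes passed the edgeR test (5 synthetases were higher and 5 lower at an unadjusted p below 0.05, and these 3 were not among them; DESeq2 and limma-voom did not call them).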

How the results depend on the processing

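Across the alternatives run, Vars, Iars2 and Nars2 kept their direction and their call, while Lars and Sars2 lost the call only without sal003 replicate 2. The count of cytosolic members called lower, 2, was 4 with a filter of 10 CPM, 5 with limma-voom, 1 without a filter, 1 with the replicate block and 0 to 5 when 1 library was left out. Over those fits the count of cytosolic members called higher was 1 to 2, that of mitochondrial members called higher 1 to 3, and the mitochondrial median log2 fold change -0.00624 to 0.162. With limma-voom this median was 0.133. The filter of 10 CPM kept 33 of the 36 members. Estimates of 7 members that did not pass changed sign, of which Ears2 had the largest (-0.34), and the cause was not tested. With limma-voom these were Dars (-0.0297), Eprs (-0.0645), Ears2 (0.0852) and Rars2 (0.179). Eprs was -0.00823 with the filter of 10 CPM, and Mars2 was 0.00461 with the replicate block. When 1 library was left out, estimates ran from -0.0323 to 0.213 for Dars, -0.0695 to 0.123 for Eprs, -0.206 to 0.0189 for Wars, -0.503 to 0.169 for Ears2, -0.266 to 0.114 for Mars2, -0.240 to 0.295 for Rars2 and -0.0554 to 0.156 for Tars2. Leaving out DMSO replicate 2 turned the sign of Dars, Eprs, Wars, Ears2 and Rars2. Same-numbered libraries showed little shared deviation (correlations from -0.02 to 0.08, and in 2 of 4 DMSO libraries highest with the own number). With 4 libraries per group this cannot tell if same-numbered libraries were paired, and the labels give no pairing. With the replicate block 3430 genes were called against 3594, and Cars lost its call (adjusted p = 0.0690).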
